A study of Mus musculus with 11 samples.

Results

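The Hox genes encode homeodomain transcription factors that give cells their position along the body axis. This report describes their 4 clusters in mouse esophagus. The members were the 39 protein-coding genes of the GRCm38.p6 RefSeq table with a symbol of Hoxa, Hoxb, Hoxc or Hoxd followed by a number, out of 21627 genes in that table. HoxA held 11 of them, HoxB 10, HoxC 9 and HoxD 9. Their loci were 129 of 124941 open regions: 40 at HoxA on chromosome 6, 33 at HoxB on chromosome 11, 36 at HoxC on chromosome 15 and 20 at HoxD on chromosome 2. A region is a stretch called open in at least 1 library, merged across libraries, and it was given to the gene body nearest to its midpoint within 100 kb.

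In each cluster the genes lie in the order of their paralog numbers, from the low numbers that act toward the head to the high numbers that act toward the tail, and all of them are transcribed in the same general direction. Polycomb complexes keep clusters silent, Trithorax complexes keep them active, and retinoic acid from the embryo's trunk opens them from the low-numbered end. TALE homeodomain proteins of the Pbx and Meis families bind DNA together with Hox proteins. In the foregut the low and middle paralog groups are known to be used, and Hoxc13, at the other end, is known for its part in hair, nail and filiform papillae.

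The assay was ATAC-seq, in which a transposase cuts accessible DNA, and each library came as a list of intervals called open by the authors. SmoM2-Sox9cKO cells (3 libraries) had the genotype Krt5-SmoM2-Sox9fl/fl and were sorted for high EpCam, an epithelial adhesion protein. SmoM2 cells (3 libraries, strain CD1) had the genotype Krt5-SmoM2 and were also sorted for high EpCam. WT cells (3 libraries, strain CD1) were wild type and were sorted for low EpCam. Embryo cells (2 libraries) came from Krt8YFP esophagus at embryonic day 13 and were sorted on YFP. SmoM2 is an activated form of Smoothened, which switches on Hedgehog signaling, Krt5 names a keratin of basal epithelial cells, and Sox9 is a transcription factor of many progenitors. No strain was stated for SmoM2-Sox9cKO or Embryo, and adult ages were not given in the sources used here. Genotype and EpCam gate changed together between both SmoM2 groups and WT, so the 2 cannot be told apart. The labels number the replicates without saying whether they were separate animals, and the p-values below thus describe variation among libraries, which may be technical.

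The 9 adult lists held 69116 to 87966 intervals and the Embryo lists 24927 and 14281. Of 10 epithelial marker genes, all had an occupied region in each adult group, and their summed number of occupied regions was 113 to 126 in SmoM2-Sox9cKO, 108 to 127 in SmoM2, 102 to 113 in WT and 20 to 31 in Embryo, where Krt5 and Krt4 were at 0. Sums of 8 endothelial markers were 46 to 48 in SmoM2-Sox9cKO, 41 to 52 in SmoM2 and 31 to 37 in WT. Sums of 7 neural crest and glial markers were 9 to 14 in SmoM2-Sox9cKO and 12 to 13 in SmoM2, against 17 to 24 in WT. Sums of 10 fibroblast markers were 25 to 29, 23 to 24 and 23 to 28 in the same order, of 7 immune markers 16 to 20, 15 to 20 and 11 to 16, and of 8 muscle markers 7 to 11, 8 to 12 and 12 to 15. Lum was at 0 in all 3 adult groups, as were the muscle genes Tagln, Myf5 and Actc1, and Ptprc, which marks all leukocytes, was at 0 in WT. Intervals at 4 Y-linked genes numbered 8, 10 and 0 in SmoM2-Sox9cKO, 9, 9 and 9 in SmoM2, 5, 0 and 0 in WT, and 0 in both Embryo libraries. The part of these differences in the Hox results was not tested, except for the Y-linked intervals, whose values stand beside the results below.

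Hox starts that were open and Hox starts that were not are shown first by their sequence. Promoters rich in the dinucleotide CG tend to be accessible across tissues, and Polycomb complexes favor them too. The sequences below are the 250 bases before the start in RefSeq's GRCm38.p6 table, 5′ to 3′, with each CG in capitals. A start counts as open where an interval overlapped the window from 250 bases before it to 50 after it. Hoxa5 (chr6:52204588-52204837, minus strand) is shown as a start open in all 9 adult libraries and in Embryo 1. Hoxd1 (chr2:74762730-74762979, plus strand) is the start closed in every SmoM2 library and open in every other adult library. Hoxd10 (chr2:74691641-74691890, plus strand) is open only in Embryo 1, by an interval that ended before the start itself. Hoxd4 (chr2:74721728-74721977, plus strand) is a start open in no library.
Hoxa5: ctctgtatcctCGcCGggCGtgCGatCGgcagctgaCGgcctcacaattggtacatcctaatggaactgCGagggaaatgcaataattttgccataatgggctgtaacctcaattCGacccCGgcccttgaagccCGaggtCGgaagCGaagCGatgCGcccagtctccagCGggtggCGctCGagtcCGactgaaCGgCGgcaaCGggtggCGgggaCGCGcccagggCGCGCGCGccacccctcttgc
Hoxd1: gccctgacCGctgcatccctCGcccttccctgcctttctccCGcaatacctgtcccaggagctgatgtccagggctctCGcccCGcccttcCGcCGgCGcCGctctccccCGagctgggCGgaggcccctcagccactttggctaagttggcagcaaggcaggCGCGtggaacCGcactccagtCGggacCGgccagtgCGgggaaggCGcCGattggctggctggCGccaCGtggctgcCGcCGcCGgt
Hoxd10: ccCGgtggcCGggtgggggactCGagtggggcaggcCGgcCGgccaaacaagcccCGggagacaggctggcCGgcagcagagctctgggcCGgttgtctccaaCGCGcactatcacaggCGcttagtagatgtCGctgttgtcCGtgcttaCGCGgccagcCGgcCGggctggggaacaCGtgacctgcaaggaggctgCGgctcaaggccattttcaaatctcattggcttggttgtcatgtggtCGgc
Hoxd4: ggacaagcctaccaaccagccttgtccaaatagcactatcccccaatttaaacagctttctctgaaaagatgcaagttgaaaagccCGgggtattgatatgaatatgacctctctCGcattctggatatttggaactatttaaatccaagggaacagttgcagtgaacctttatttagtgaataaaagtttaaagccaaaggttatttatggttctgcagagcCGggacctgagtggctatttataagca

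The printed Hoxa5 sequence holds 28 CG, that of Hoxd1 24, that of Hoxd10 20 and that of Hoxd4 3. Over windows of 250 bases before and 50 after a start, 22 Hox genes with 24 windows had a sequence, and 5 of these windows (20.8%) were open in all 9 adult libraries, against 52.6% of 21044 windows of all genes. The 24 windows were 10 at HoxA, 3 at HoxB, 1 at HoxC and 10 at HoxD, so this share says little of HoxB and HoxC. The 5 belonged to Hoxa2, Hoxa5, Hoxa6, Hoxb4 and the second of 2 starts of Hoxd11. Their median CG count was 25, against 20 in the 11 Hox windows open in 1 to 8 adult libraries and 9.5 in the 8 Hox windows open in none. The same order held over all genes, with medians of 22, 13 and 3. The Hox windows of the last class ranged from 4 to 22 CG and those of the first class from 9 to 29, so the classes overlapped. Hoxd10 and Hoxd4 both fell in the last class, with 22 and 4 CG in the longer window.

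Sites that Hox and Pbx proteins bind together are commonly written TGATNNAT. On either strand this motif was present in 4 of 24 Hox windows (16.7%), against 7.36% of all windows. The 2 printed here with their match in capitals are Hoxa2 (chr6:52164832-52165081, minus strand), open in all 9 adult libraries, and Hoxb1 (chr11:96365508-96365757, plus strand), open in none over that window. They are shown because the same motif stood in an open and in a closed window. Beyond its closed window, the Hoxb1 body held the region chr11:96366064-96367411, occupied in all 9 adult and both Embryo libraries.
Hoxa2: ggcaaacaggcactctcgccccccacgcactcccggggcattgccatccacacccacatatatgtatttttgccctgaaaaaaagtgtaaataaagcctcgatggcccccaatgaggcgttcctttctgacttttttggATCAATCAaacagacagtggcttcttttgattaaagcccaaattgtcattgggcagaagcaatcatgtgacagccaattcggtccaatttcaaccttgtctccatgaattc
Hoxb1: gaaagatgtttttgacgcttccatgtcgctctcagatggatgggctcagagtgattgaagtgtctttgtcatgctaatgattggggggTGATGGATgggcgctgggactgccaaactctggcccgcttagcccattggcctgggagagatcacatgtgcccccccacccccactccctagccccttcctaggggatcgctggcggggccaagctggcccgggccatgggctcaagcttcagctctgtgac

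The other matches were in the Hoxb8 window, open in no library, and in the second Hoxd11 window, open in all 9 adult libraries. The Hoxb8 gene body was overlapped by an interval in 6 adult libraries. AGGTCA, the half-site of retinoic acid receptors, stood on either strand in 7 of 24 Hox windows (29.2%), against 14.6% of all windows. TGGGTGGTC, the core of the site bound by Gli factors of the Hedgehog pathway, stood in 0 of 24, against 0.181% of all windows.

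The adult clusters carried a common set of open regions and a larger set that varied between libraries. Of the 129 Hox regions, 34 (26.4%) were occupied in all 9 adult libraries, against 35.6% of all regions. A further 90 were occupied in 1 to 8 adult libraries, 27 of them in a single library. Occupied here means that an interval of the library overlapped the region by at least 1 bp. The share in all 9 adult libraries was 36.1% at HoxC, 30% at HoxA and 24.2% at HoxB, and at HoxD it was 1 of 20 regions. Regions in all 9 adult libraries were wider, with a median of 1288 bp against 504.5 bp for those in 1 to 8, which was close to the 1133 bp and 507 bp of all regions. Of the 34, 24 (70.6%) had their midpoint in a gene body, against 58.8% of such regions over the genome.

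**Figure D1:**
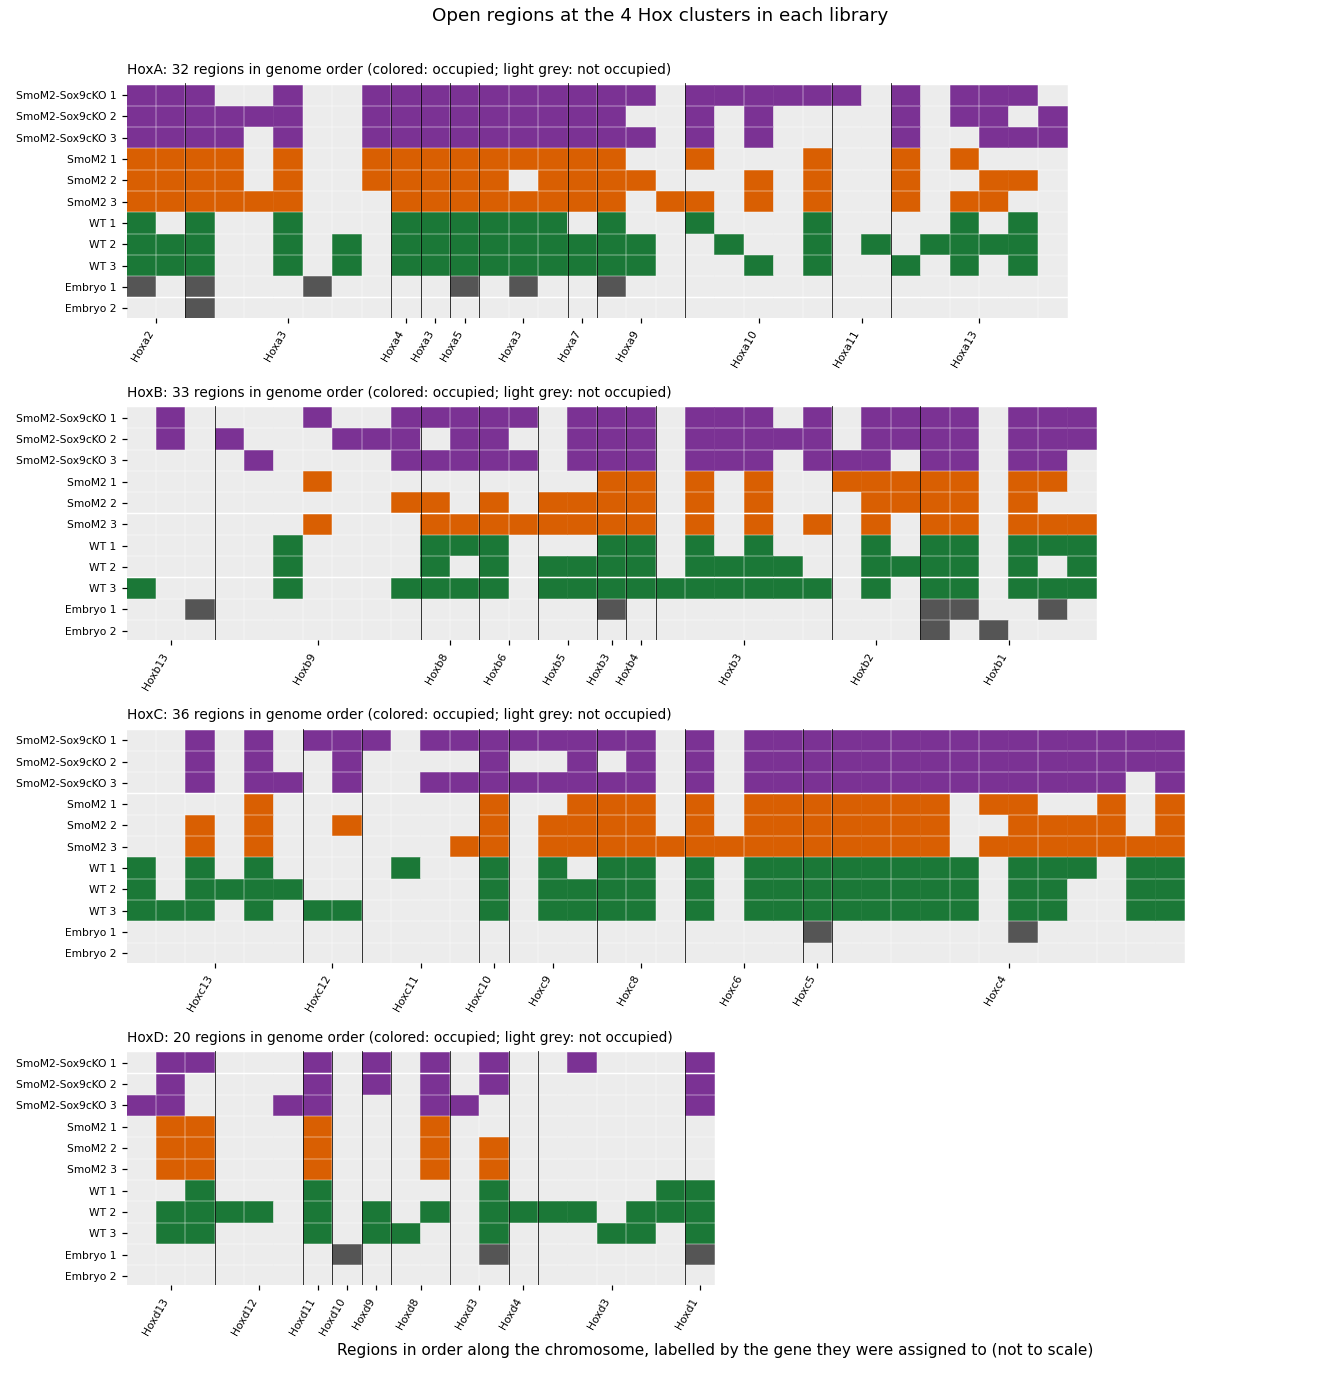
Each column is 1 of 121 Hox regions, those of the genes reported here, in genome order within its cluster, each row a library, and a colored square marks a region overlapped by an interval of that library. HoxA and HoxC carried columns filled in all 9 adult rows (9 and 13 of those drawn), HoxD carried 1, and the Embryo rows at the bottom held 16 and 3 filled squares.

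A strong common region lay at the low-numbered end of HoxA. The region chr6:52172157-52173295 in the body of Hoxa3, a gene of pharyngeal and hindbrain patterning, had an authors' −log10 q of 52.6, 81.1 and 64.4 in SmoM2-Sox9cKO, 34.6, 31.3 and 52.4 in SmoM2, 33.5, 46.1 and 29.7 in WT, and 11.5 and 5.26 in Embryo. Since −log10 q grows with depth, its place in each list was also taken, and the region stood among the top 8.005% to 9.70% of intervals in SmoM2-Sox9cKO, 14.7% to 20.2% in SmoM2 and 6.998% to 16.1% in WT. The SmoM2-Sox9cKO libraries were above the SmoM2 libraries in that order, and overlapped WT.

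At HoxC the bodies of Hoxc4, Hoxc5, Hoxc6, Hoxc8, Hoxc10 and Hoxc13 were open in every adult library, and that of Hoxc9 in all but WT 1. Hoxc6, a gene of thoracic identity, had its strongest region at chr15:102998379-103000076, with a −log10 q of 30.5, 61.4 and 38.7 in SmoM2-Sox9cKO, 33.8, 32.9 and 43.3 in SmoM2 and 15.9, 29.2 and 21.4 in WT, and no interval in either Embryo library. Hoxc10, a gene of lumbar identity, had the region chr15:102966194-102967285 over its start, with a −log10 q of at least 16.6 in all 9 adult libraries. Distances are given from a region's midpoint to the gene body. The region chr15:103040784-103042495, 4783 bp beyond Hoxc4, was also common to all 9. At HoxD the region in all 9 was chr2:74681607-74682642, over the second start of Hoxd11, with a −log10 q of 2.24 to 13.6.

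Member by member, an interval overlapped the gene body in all 9 adult libraries for 19 of 39 Hox genes (48.7%), against 66.1% of all genes. By cluster these were 8 of 11 HoxA genes, 4 of 10 HoxB genes, 6 of 9 HoxC genes and, at HoxD, Hoxd11 alone. Hoxa11, Hoxb7, Hoxc12 and Hoxd10 had none in any adult library (10.3% of members, against 22.7% of all genes). The other 16 were open in 1 to 8 adult libraries. Within single libraries the Hox share was 84.6%, 79.5% and 82.1% in SmoM2-Sox9cKO, 59.0%, 71.8% and 71.8% in SmoM2, and 59.0%, 79.5% and 79.5% in WT, against 70.0% to 72.7% of all genes. It was thus above all genes in every SmoM2-Sox9cKO library, in WT 2 and 3 and, by under 1 percentage point, in SmoM2 2, and below them in SmoM2 1 and 3 and WT 1. Gene bodies overlap at several places: that of Hoxa3 contains Hoxa4, Hoxa5 and Hoxa6, that of Hoxb3 contains Hoxb4, that of Hoxd3 contains Hoxd4, and Hoxd10 and Hoxd11 overlap, so these neighbors share intervals. For the same reason no region was assigned to Hoxa6 although its body was overlapped in all 9 adult libraries. Longer bodies are also more likely to hold an interval, and gene lengths were not matched in these shares.

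By paralog group, 6 of 8 genes of groups 1 to 3, 8 of 15 of groups 4 to 8 and 5 of 16 of groups 9 to 13 were open in all 9 adult libraries. Hoxa3, Hoxb3 and Hoxd3 have bodies of 44009, 40830 and 36279 bp, against at most 18760 bp in the other members. The part of gene length in this order was not tested. Among groups 1 to 3, every gene was open in each SmoM2-Sox9cKO and each WT library, while the SmoM2 libraries had 6, 7 and 7 of 8, with Hoxd1 missing in all of them and Hoxd3 in SmoM2 1. Among groups 9 to 13, SmoM2-Sox9cKO libraries had 12, 10 and 11 of 16 open, SmoM2 libraries 7, 9 and 8, and WT libraries 5, 10 and 11. SmoM2-Sox9cKO stood above SmoM2 without overlap, and WT spanned both. Hoxa13, Hoxc13 and Hoxa10, which pattern the hind end, limbs and skin appendages, were open in all 9.

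**Figure D2:**
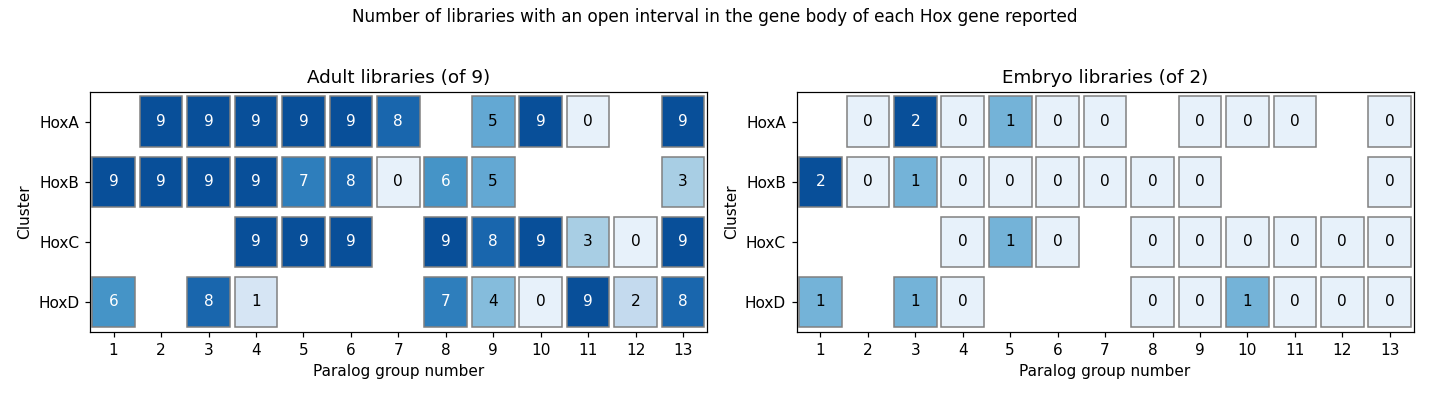
Each square is a Hox gene, placed by cluster (rows) and paralog group (columns), with the number of adult libraries (left, of 9) and Embryo libraries (right, of 2) that had an interval in its body. In adults the low-numbered genes of HoxA and HoxB were at 9 and Hoxa11, Hoxb7, Hoxc12 and Hoxd10 at 0. In Embryo, Hoxa3 and Hoxb1 were at 2. Only genes reported here are drawn.

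The total of occupied Hox regions was 86, 74 and 77 in SmoM2-Sox9cKO, 55, 64 and 74 in SmoM2, 61, 79 and 78 in WT, and 19 and 5 in Embryo. Means were 79 ± 6.2 in SmoM2-Sox9cKO, 64.3 ± 9.5 in SmoM2 and 72.7 ± 10.1 in WT (SD, n = 3 each). They covered 57.6 ± 5.6 kb, 47.5 ± 7.3 kb and 50.4 ± 8.6 kb in the same order. SmoM2-Sox9cKO and SmoM2 met at 74, and WT overlapped both, so the adult totals were not separated by group. As a share of all regions occupied in the library, they were 0.107%, 0.1001% and 0.107% in SmoM2-Sox9cKO, 0.0711%, 0.0868% and 0.0868% in SmoM2, and 0.0914%, 0.104% and 0.105% in WT. On that scale SmoM2 lay below both other groups without overlap, and SmoM2-Sox9cKO and WT overlapped. With 3 libraries against 3, an exact permutation test cannot go below p = 0.1.

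SmoM2-Sox9cKO and SmoM2 were apart at HoxB and HoxD. HoxB had 21, 22 and 19 occupied regions in SmoM2-Sox9cKO, 12, 14 and 18 in SmoM2, and 14, 17 and 22 in WT. SmoM2-Sox9cKO (20.7 ± 1.5) stood above SmoM2 (14.7 ± 3.1) by 1 region or more, and WT (17.7 ± 4.0) overlapped both. HoxD had 8, 6 and 7 in SmoM2-Sox9cKO, 4, 5 and 5 in SmoM2, and 5, 14 and 9 in WT. SmoM2-Sox9cKO (7 ± 1) again stood above SmoM2 (4.67 ± 0.58) without overlap, while WT (9.33 ± 4.51) reached down to the highest SmoM2 value and owed its mean to WT 2. HoxA was nearly level, with 25.3 ± 2.3, 24 ± 2 and 22.7 ± 2.5 in SmoM2-Sox9cKO, SmoM2 and WT, and HoxC had 26 ± 3.6, 21 ± 4 and 23 ± 1.

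**Figure D3:**
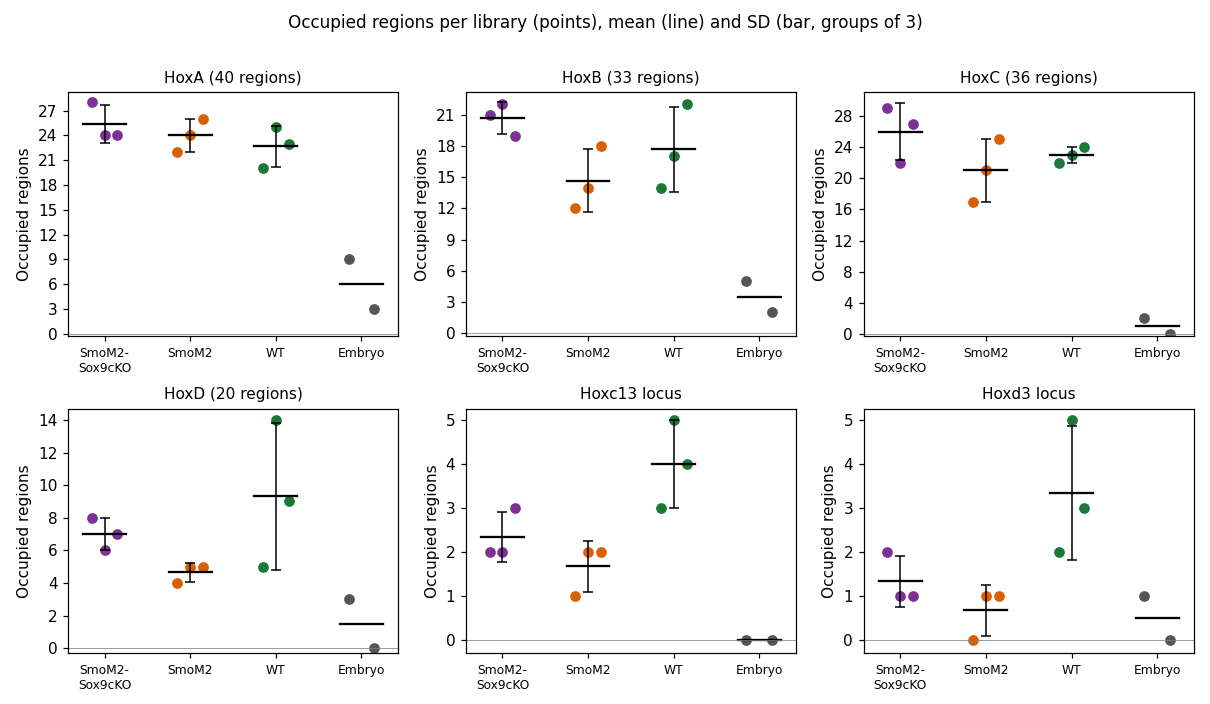
Points are the occupied regions of each library at each cluster and at the Hoxc13 and Hoxd3 loci, with the mean as a line and the SD as a bar for groups of 3. The HoxB and HoxD points of SmoM2-Sox9cKO lay above those of SmoM2, and at Hoxc13 and Hoxd3 the SmoM2 points lay below those of WT.

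In the comparison of SmoM2 with WT, in which the EpCam gate differs along with the genotype, 2 of the 26 tested Hox loci fell in SmoM2 and 0 rose. A locus was tested where it averaged at least 1 occupied region over the 9 adult libraries, and the limma fit was adjusted by Benjamini-Hochberg over 15361 loci. Over all of these, 5.76% fell and 5.21% rose (11% in either direction), so the Hox share of 7.69% lower was near the background. With no scaling to library totals, 341 loci fell and 764 rose, in place of 885 and 800, and 0 Hox loci did. The median log2 change of the tested Hox loci was −0.12, as was that of all loci. A locus with the same count in every adult library also takes this value, through the scaling to library totals. The median thus shows no fall in counts. The other 13 members had too few regions to be tested, Hoxd1 among them, and 6 tested loci (Hoxa4, Hoxa5, Hoxb4, Hoxc5, Hoxc10 and Hoxd11) had exactly 1 region in every adult library.

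Hoxc13, the gene of hair and papillae, had 1, 2 and 2 occupied regions in SmoM2 and 3, 5 and 4 in WT. It fell by 1.19 on the log2 scale (SE 0.25, adjusted p = 0.0164, limma). The groups did not overlap. The region over its own 5′ part, chr15:102920661-102922324, was occupied in all 9 adult libraries. The regions that differed were a second one in the body, chr15:102927410-102927847, open in WT 2 and in no SmoM2 library, and 4 flanking ones, the farthest 83824 bp from the gene body. Within 20 kb of the gene the log2 change was −0.53, with an adjusted p of 0.366.

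Hoxd3, a gene of neck vertebrae, had 0, 1 and 1 occupied regions in SmoM2 and 2, 5 and 3 in WT. It fell by 1.93 on the log2 scale (SE 0.42, adjusted p = 0.0199, limma). The groups did not overlap, and SmoM2-Sox9cKO, with 2, 1 and 1, met both. Its strongest region, chr2:74715757-74716486, had a −log10 q of 4.67, 14.1 and 3.80 in WT. That region stayed open in SmoM2 2 and 3, at 10.4 and 12.2, and had no interval in SmoM2 1. The region chr2:74746662-74747286 in the Hoxd3 body was open in WT 2 and 3, at 1.31 and 2.76, and in no SmoM2-Sox9cKO or SmoM2 library. The region chr2:74749729-74750181, 1684 bp beyond the body, was open in WT 1 and 2, at 2.18 and 4.84, and in no SmoM2-Sox9cKO or SmoM2 library. Other Hoxd3 regions open in WT were each held by a single WT library, at 1.82 to 3.37. Both calls ended without WT replicate 2 (adjusted p = 0.0560 for Hoxc13 and 0.0622 for Hoxd3, limma). They also ended with Y-linked intervals as a covariate (adjusted p = 0.104 and 0.0996, limma), with no scaling (0.0765 and 0.103) and in lists of equal length (0.221 and 0.195). The log2 changes kept their sign: −0.88 for Hoxc13 and −1.80 for Hoxd3 with the covariate, −1.07 and −1.81 with no scaling, and −1.38 and −1.19 in lists of equal length.

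At an unadjusted p under 0.05, 3 Hox loci were lower (11.5%, against 14.3% of all loci) and 0 were higher (against 10.4%). The one beside Hoxc13 and Hoxd3 was Hoxb3, with 3, 3 and 4 occupied regions in SmoM2 and 3, 5 and 7 in WT. Its log2 change was −0.59 (SE 0.22, adjusted p = 0.127, limma). The groups overlapped at 3. Without WT replicate 1, which held 3, the adjusted p was 0.0304.

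Single regions were read in addition, as gained where all 3 libraries of the first group and none of the second held them, and lost in the reverse case. Between SmoM2 and WT, 2 of 110 Hox regions were gained (1.82%, against 7.66% of all regions) and 4 were lost (3.64%, against 3.45%). The lost share was near the background and the gained share below it. Leaving out a library asks for fewer matches and can only raise such counts: 4 were gained without SmoM2 replicate 2, and 9 were lost without WT replicate 1.

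One lost region lay over the start of Hoxd1, the low-numbered end of HoxD. This region, chr2:74762593-74763543, had a −log10 q of 5.77, 10.001 and 2.59 in SmoM2-Sox9cKO, no interval in any SmoM2 library, and 6.92, 11.2 and 13.3 in WT. Its fold enrichment was 3.27 to 6.05 in SmoM2-Sox9cKO and 5.39 to 6.83 in WT. It was also called in Embryo 1, at 2.36, and not in Embryo 2. Of 24 Hox promoter windows it was the only 1 closed in all SmoM2 and open in all WT libraries, a pattern of 0.328% of all windows.

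The other lost regions lay outside gene bodies. The region chr15:103056226-103056841, 19677 bp beyond Hoxc4, had a −log10 q of 4.40, 2.94 and 6.85 in SmoM2-Sox9cKO, no interval in SmoM2, and 2.55, 3.17 and 9.67 in WT. The region chr11:96260283-96260636, 10871 bp from Hoxb9, was called at 7.07, 5.48 and 3.30 in WT alone. The region chr15:102837066-102837549, 83824 bp from Hoxc13, was called at 4.70, 4.52 and 9.47 in WT alone.

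The 2 gained regions were chr6:52175272-52176179 in the body of Hoxa3 and chr15:103083839-103085043, 47585 bp beyond Hoxc4. The first was called in 2 SmoM2-Sox9cKO libraries, at a −log10 q of 8.35 and 3.90, and in all 3 SmoM2 libraries, at 2.69, 7.37 and 4.53. The second had 17.1, 24.6 and 3.28 in SmoM2-Sox9cKO and 8.93, 3.81 and 7.49 in SmoM2. It was the only Hox region open in every library of both SmoM2 groups and in no WT or Embryo library.

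**Figure D4:**
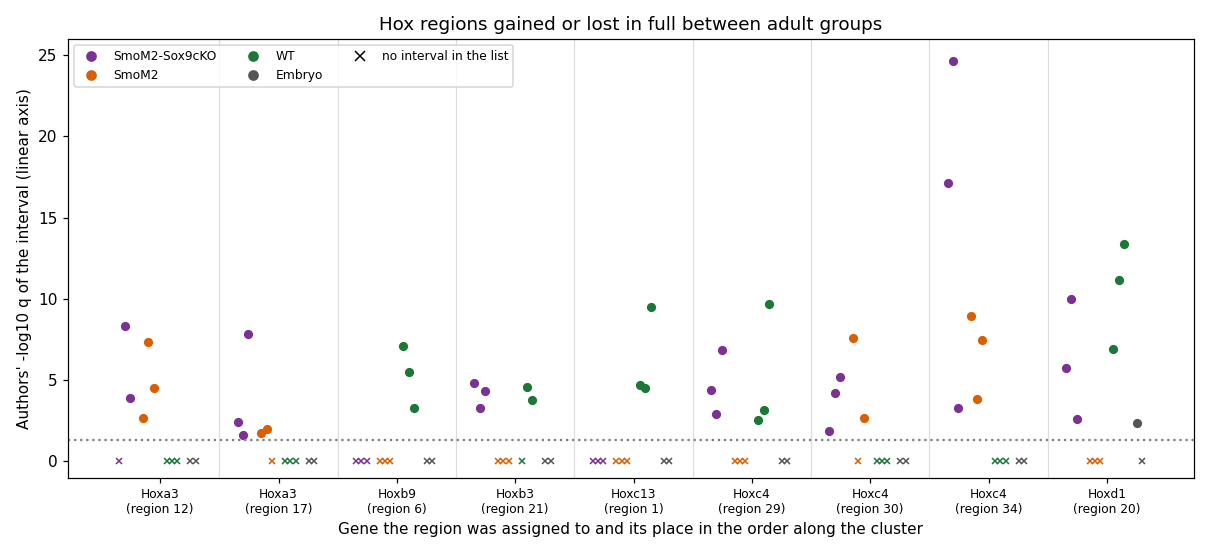
The authors' −log10 q (linear axis) of the 9 Hox regions gained or lost in full in any comparison, by library, with a cross where a list held no interval and a dotted line at the lowest −log10 q of about 1.3 that the lists keep. At Hoxd1 the 3 SmoM2 libraries held no interval while SmoM2-Sox9cKO and WT libraries lay between 2.59 and 13.3.

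In the comparison of SmoM2-Sox9cKO with SmoM2, the genotypes differ in Sox9. Strain CD1 was stated for SmoM2 only, so a strain difference could not be told apart from Sox9 loss. By limma, 0 of the 26 tested Hox loci rose in SmoM2-Sox9cKO and 0 fell, against 0.423% and 0.43% of all loci (0.853% in either direction). At an unadjusted p under 0.05, 4 Hox loci were higher in SmoM2-Sox9cKO (Hoxa13, Hoxb3, Hoxb9 and Hoxc4) and 0 were lower. These are 15.4% and 0% of the tested members, against 6.81% and 4.93% of all loci at that threshold. The median log2 change was 0.11 over Hox loci and 0.06 over all loci, and 0.06 is the value of a locus with the same count in every adult library. Hoxb9, a thoracic gene, had 2, 4 and 2 occupied regions in SmoM2-Sox9cKO and 1, 1 and 1 in SmoM2, a log2 change of 1.08 (SE 0.27, adjusted p = 0.145, limma). The groups did not overlap, but some Hoxb9 regions were called in a single SmoM2-Sox9cKO library, at a −log10 q of 1.44 to 2.04. The region chr11:96271446-96272322 in its body was open in all 3 SmoM2-Sox9cKO libraries and in SmoM2 2. Counted in covered base pairs in place of regions, the adjusted p of Hoxb9 was 0.0173 (limma). Hoxb3 had 5, 6 and 5 in SmoM2-Sox9cKO and 3, 3 and 4 in SmoM2, a log2 change of 0.67 (SE 0.22, adjusted p = 0.265, limma).

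Among regions, 3 of 106 were gained in SmoM2-Sox9cKO (2.83%, against 0.784% of all regions) and 0 were lost (against 1.54%). The 3 were the Hoxd1 start, the region 19677 bp beyond Hoxc4, and chr11:96339072-96339981 in the body of Hoxb3. The last had a −log10 q of 4.85, 3.25 and 4.33 in SmoM2-Sox9cKO and no interval in SmoM2, and it was called in 2 of 3 WT libraries. The counts were small: 5 were gained without SmoM2-Sox9cKO replicate 2 or 3 or without SmoM2 replicate 2 or 3, and 2 were lost without SmoM2-Sox9cKO replicate 1 or without SmoM2 replicate 1, and 1 without SmoM2 replicate 2. This comparison uses the same SmoM2 libraries as the one with WT, so a region missing from SmoM2 counts in both.

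In the comparison of SmoM2-Sox9cKO with WT, 0 of the 26 tested Hox loci rose and 0 fell by limma, against 4% and 3.42% of all loci (7.41% in either direction). With no scaling, 509 loci rose and 261 fell, in place of 614 and 525. At an unadjusted p under 0.05, Hoxb9 was higher and 3 loci were lower, Hoxc13 and Hoxd3 among them. The share higher was 3.85% of the tested members, against 10.1% of all loci at that threshold, and the share lower 11.5%, against 11.3%. Hoxc13 had 2, 2 and 3 occupied regions in SmoM2-Sox9cKO and 3, 5 and 4 in WT, a log2 change of −0.72 (SE 0.25, adjusted p = 0.127, limma). Hoxd3 had 2, 1 and 1 in SmoM2-Sox9cKO and 2, 5 and 3 in WT, a log2 change of −1.09 (SE 0.42, adjusted p = 0.171, limma). Both pairs of groups overlapped by a single value. In a fit without SmoM2 replicate 1, a library of neither group, the adjusted p of Hoxd3 was 0.0440. Hoxb9 had 2, 4 and 2 in SmoM2-Sox9cKO and 1, 1 and 2 in WT, a log2 change of 0.71 (SE 0.27, adjusted p = 0.165, limma). Those groups met at 2. By covered base pairs Hoxd3 was lower (adjusted p = 0.0317, limma) and Hoxb9 higher (adjusted p = 0.00627, limma) in SmoM2-Sox9cKO than in WT.

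Of 120 Hox regions, 3 were gained in SmoM2-Sox9cKO against WT (2.5%, against 4.85% of all regions) and 2 were lost (1.67%, against 3.06%). The gained regions were the region 47585 bp beyond Hoxc4, chr15:103058571-103059053, 21956 bp beyond Hoxc4, and chr6:52185079-52185853 in the body of Hoxa3. The lost regions were those near Hoxb9 and 83824 bp from Hoxc13 given above. Gained regions numbered 5 without SmoM2-Sox9cKO replicate 1, 7 without replicate 2, 5 without WT replicate 1 or 2, and 8 without WT replicate 3. Lost regions numbered 4 without SmoM2-Sox9cKO replicate 1 and 5 without WT replicate 1.

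How alike libraries were at the Hox regions was described by the Jaccard index, the regions occupied in both over those in either. It averaged 0.65 between SmoM2-Sox9cKO and SmoM2 libraries, 0.59 between SmoM2-Sox9cKO and WT and 0.59 between SmoM2 and WT. Within groups it was 0.72, 0.68 and 0.66 in SmoM2-Sox9cKO, SmoM2 and WT. Over all regions the matching values were 0.72, 0.63 and 0.61 between groups and 0.74, 0.76 and 0.76 within. These values are descriptions without a test, and they move with list length.

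The Embryo libraries had few open Hox regions. The open gene bodies were mostly those of low paralog groups, with Hoxd10 as the exception in groups 9 to 13, and regions near Hoxa9 and Hoxb13 were open as well. Embryo 1 had 19 of 129, by cluster 9 at HoxA, 5 at HoxB, 2 at HoxC and 3 at HoxD, and Embryo 2 had 5, of which 3 were at HoxA and 2 at HoxB. As a share of all regions occupied in the library, these were 0.0774% and 0.0356%. Adult libraries had 0.0711% to 0.107%, so Embryo 1 lay within the adult range and Embryo 2 below it. Gene bodies were open for 9 of 39 Hox genes in Embryo 1 (23.1%, against 61.5% of all genes) and 3 in Embryo 2 (7.69%, against 45.8%). Of the 8 genes of groups 1 to 3, 6 were open in Embryo 1 and 3 in Embryo 2. The 6 included the long genes Hoxa3, Hoxb3 and Hoxd3, and the 3 included Hoxa3. Of the 15 genes of groups 4 to 8, 2 and 0 were open, and of the 16 of groups 9 to 13, 1 and 0. Among promoter windows, 4 of 24 Hox windows were open in Embryo 1 (16.7%, against 49.8% of all) and 0 in Embryo 2 (against 37.2%). The excess of closed Hox genes was not tested, nor was the part of gene length in it.

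**Figure D5:**
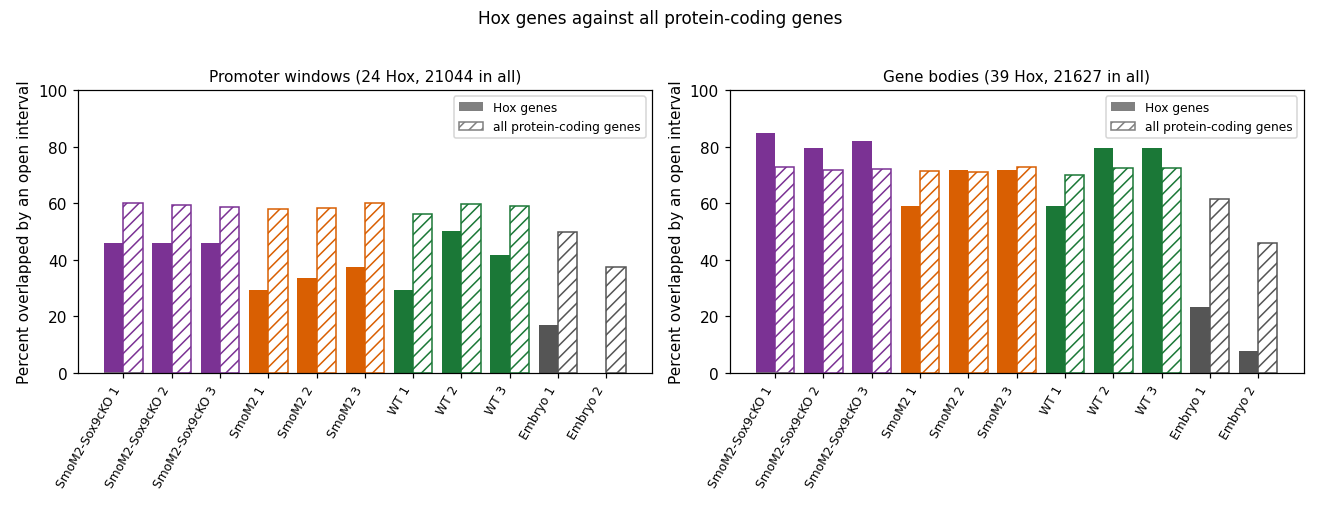
Filled bars give the percent of Hox promoter windows (left) and Hox gene bodies (right) overlapped by an interval in each library, and hatched bars give the same over all protein-coding genes. In adults 29.2% to 50% of Hox windows were open against 56.0% to 60.02% of all windows, and in Embryo 16.7% and 0% against 49.8% and 37.2%. For gene bodies the Hox bars stood above the hatched bars in 6 of 9 adult libraries and below them in both Embryo libraries.

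Regions open in all 9 adult libraries were found in Embryo 1 for 11 of 34 at Hox (32.4%, against 36.8% of all such regions) and in Embryo 2 for 4 of 34 (11.8%, against 25%). The 4 regions in both Embryo libraries were all open in the 9 adult libraries too. Among them were chr6:52172157-52173295 in Hoxa3 and chr11:96366064-96367411 in Hoxb1, which marks a single hindbrain segment. The Hoxb1 region had a −log10 q of 34.5, 18.3 and 25.5 in SmoM2-Sox9cKO, 12.7, 9.46 and 23.7 in SmoM2, 15.0, 23.1 and 27.1 in WT, and 6.11 and 2.59 in Embryo.

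The order of Embryo and adult libraries changed with list length. When every list was reduced to the 14281 intervals with the highest −log10 p, SmoM2-Sox9cKO libraries held 2, 3 and 3 occupied Hox regions, SmoM2 libraries 2, 0 and 2, WT libraries 1, 2 and 3, and Embryo libraries 5 and 5. Every adult library was then below both Embryo libraries. Of the 5 in each, 4 and 3 lay at HoxA and 1 and 2 at HoxB. Most adult Hox intervals ranked below that limit, and the full lists alone do not show that Embryo cells had fewer open Hox regions. Fewer cells with an open region and less opening per cell cannot be told apart in any of these bulk libraries.

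Genes that act with or next to the Hox clusters changed in small numbers. In SmoM2 against WT, where 5.21% of all loci rose and 5.76% fell, 1 of 11 tested TALE cofactors rose and 0 fell. It was Pbx3, with 6 occupied regions in each SmoM2 library against 3, 4 and 3 in WT (log2 change 0.65, SE 0.12, adjusted p = 0.0111, limma). Pbx3 also rose in SmoM2-Sox9cKO against WT, with 6, 6 and 5 occupied regions (log2 change 0.63, adjusted p = 0.0148, limma). Of 13 tested neighbors of the clusters, 2 rose and 2 fell in SmoM2 against WT, beside the same 5.21% and 5.76% of all loci. Lnpk, an endoplasmic reticulum protein gene beside HoxD, had 3, 2 and 2 regions in SmoM2 and 1 in each WT library, and Hibadh, a metabolic gene beside HoxA, had 7, 7 and 10 in SmoM2 and 11, 10 and 11 in WT. Atf7, a bZIP factor gene near HoxC, had 5, 3 and 4 in SmoM2 and 2 in each WT library. At a reach of 20 kb the log2 change of Lnpk was −0.12, the value of loci with 1 region in every adult library, such as Hoxa4. That value comes from the scaling to library totals, so no difference in Lnpk counts was left. Atf7 changed sign with intervals of a −log10 q of at least 5 (log2 change −0.16). The calls of Lnpk and Hibadh against WT held under 13 of 20 alternatives each and that of Atf7 under 9.

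Chromatin regulators showed changes of 1 to 4 regions. Of 29 tested Polycomb genes, 1 rose and 1 fell in SmoM2 against WT, where 5.21% of all loci rose and 5.76% fell. Pcgf2 had 2 regions in each SmoM2 library against 1 in each WT library, and Pcgf6 had 1 against 2. Both genes had the same counts in SmoM2-Sox9cKO as in SmoM2, and both passed the test against WT. Of 11 tested Trithorax and MLL genes, 0 rose and 2 fell in SmoM2 against WT, beside the same 5.21% and 5.76% of all loci. Men1, the menin gene, had 1 region in each SmoM2 library against 2 in each WT library, and Wdr5, a core subunit, had 5, 5 and 6 against 8, 9 and 8. Of the same 11 genes, Men1 and Dpy30 rose in SmoM2-Sox9cKO against SmoM2, with 2 regions in each library against 1. Over all loci, 0.423% rose in that comparison. The Men1 and Dpy30 calls held under 11 and 14 of 20 alternatives. Where every library of a group holds the same count, only the library totals and the variance trend of the fit set the spread. Such p-values can thus be small for 1 region.

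Of 17 tested retinoic acid genes, 3 rose and 1 fell in SmoM2 against WT, where 5.21% and 5.76% of all loci did. The retinaldehyde dehydrogenase gene Aldh1a1 had 9, 10 and 8 regions in SmoM2 against 4 in each WT library (log2 change 0.95, SE 0.14, adjusted p = 0.00280, limma). Aldh1a3, with the same activity, had 10, 7 and 10 in SmoM2 against 5, 6 and 6 in WT, and Aldh1a2, the main embryonic one, had 3, 2 and 3 in SmoM2 against 5, 5 and 4 in WT (log2 change −0.84, adjusted p = 0.0498, limma). The calls of Aldh1a2 and Aldh1a3 were kept under 8 and 6 of 20 alternatives, and that of Aldh1a1 under 19. Leaving out any WT or SmoM2 library ended the Aldh1a2 call, with an adjusted p of 0.0618 to 0.149 (limma). Leaving out any of them but SmoM2 2 ended the Aldh1a3 call, with an adjusted p of up to 0.154 (limma). At a reach of 20 kb the log2 change of Aldh1a3 was 0.07 (adjusted p = 0.837, limma). Aldh1a1 rose in SmoM2-Sox9cKO against WT too, with 7 regions in each library. Of 8 tested other homeobox genes of the Hox and ParaHox class, 1 fell in SmoM2 against WT and 0 rose: Pdx1, of pancreas and duodenum, had 0, 0 and 1 regions in SmoM2 against 3, 1 and 3 in WT (log2 change −1.99, adjusted p = 0.0279, limma), and the groups met at 1. That call held under 12 of 18 alternatives.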

How the data were processed

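ATAC-seq intervals of 11 libraries were used, 1 list of 10 columns per library. Per the submitters' processing notes, Trimmomatic, Bowtie2, Picard, MACS2 and deepTools were used with GRCm38/mm10. Versions, settings and order of steps are not stated there. Each list was deposited in the MACS2 layout, with a score, a fold enrichment, a −log10 p-value, a −log10 q-value and a summit offset for every interval. The score was not used. No read totals were given, which leaves depth unknown, and a missing interval does not prove closed chromatin.

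Intervals on chromosomes 1 to 19 and X were pooled over libraries and joined where they overlapped by at least 1 bp. A region was given to the closest gene body at up to 100 kb (111931 regions had one), and to the shortest body among several. Coordinates are 1-based in GRCm38. Locus counts were scaled as log2((occupied regions + 0.5) / (total + 1) × 100000) and fitted with limma 3.58.1 in R 4.3.3 (variance trend, robust option off), with the 3 adult groups in 1 fit, at an adjusted p of 0.05 within each comparison. A rise means more occupied regions, not expression. Promoter sequences are from RefSeq's GRCm38.p6 table.

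The members and the gene lists were chosen with earlier results of these data known. Named genes were any Hox member and, per other list and comparison, up to 3 called members with the largest log2 change; named regions were those gained, lost or open in Embryo. Other regions and the marker genes at 0 were chosen after their values were seen. The fit was tested on simulated data. Replicate numbers gave no sign of pairing between libraries, which these data cannot exclude. Values of some single genes are not reported here, though they stay in the counts.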

Additional observations from a re-analysis of the deposited data

Results flagged for a closer look

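5 Hox regions were occupied in an Embryo library and in 0 of 9 adult libraries, which the adult comparisons do not cover. They were 3.88% of Hox regions, near the background of 3.70% of all regions. One was chr2:74691506-74691816, which overlapped the 250 bases before the start of Hoxd10 without reaching the start. Hoxd10 had no adult region of its own. Others were chr11:96203492-96203838, 7055 bp from Hoxb13, chr11:96397276-96397569, 29168 bp from Hoxb1, and chr6:52182210-52182488 in the body of Hoxa3. The authors' −log10 q was 3.14, 2.49, 2.59 and 1.38 in that order. Each of these was called in a single library, the one beyond Hoxb1 in Embryo 2 and the others in Embryo 1.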

How the results depend on the processing

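The number of Hox loci lower in SmoM2 than in WT, 2 as reported, was 0 with a −log10 q of at least 5, 0 in adult lists of equal length, 0 with no scaling, 0 with Y-linked intervals as a covariate, 1 by covered base pairs and 0 to 3 when each library was left out. The covariate, presence or absence of intervals at the Y-linked genes, was chosen after seeing the data. The planned one, any interval on chromosome Y, was not run because every list holds some. The Hoxc13 call held under 13 of 20 alternatives (adjusted p 0.00972 to 0.366) and the Hoxd3 call under 15 of 19 (0.00352 to 0.195, limma), all with the same sign. By covered base pairs, SmoM2-Sox9cKO had 1 higher Hox locus than SmoM2, 1 higher than WT and 1 lower than WT, in place of 0. With no filter on low loci, 1 was higher than SmoM2. Leaving out each library gave 0 to 1 lower than WT. At a 20 kb reach Lnpk was at −0.12 in SmoM2 and −0.0619 in SmoM2-Sox9cKO against WT. These are the values of loci with 1 region in every adult library, so Lnpk did not reverse in counts. Atf7 reversed to −0.16 and −0.13 at −log10 q of at least 5, and the cause was not tested.

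For SmoM2 against WT, gained and lost Hox regions numbered 0 and 1 at −log10 q of at least 5, 5 and 11 with 2 of 3 libraries, and 2 to 4 and 4 to 9 when libraries were left out. Gained regions were 1 in lists of equal length and 1 at a 20 kb reach. For SmoM2-Sox9cKO against SmoM2, 1 was gained at −log10 q of at least 5, 8 were gained and 3 lost with 2 of 3, and 3 to 5 and 0 to 2 when libraries were left out. For SmoM2-Sox9cKO against WT, gained regions were 1 at −log10 q of at least 5, 1 in lists of equal length, 1 at 20 kb and 10 with 2 of 3, and lost ones 0 at −log10 q of at least 5, 1 at 20 kb and 7 with 2 of 3, with 4 to 8 and 2 to 5 when libraries were left out. Mean occupied Hox regions in SmoM2-Sox9cKO, SmoM2 and WT were 51.7, 41 and 41.3 at −log10 q of at least 5, 2.67, 1.33 and 2 in lists of 14281, and 67.3, 54.3 and 61.7 at 20 kb.

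Same-numbered libraries deviated together no more than others (correlation −0.07 to 0.08 over 9 pairs, against −0.12 to 0.12 over 18 other pairs). This gave no sign of pairing by number, but with 3 libraries per group it cannot exclude pairing. With a replicate block, 2 Hox loci were lower in SmoM2 than in WT, and 0 differed in either other comparison. The block moved the calls over all loci to 37 higher and 38 lower in SmoM2-Sox9cKO against SmoM2, in place of 65 and 66. Over all alternatives, loci higher and lower numbered 392 to 1305 and 335 to 1544 in SmoM2 against WT, 8 to 107 and 20 to 122 in SmoM2-Sox9cKO against SmoM2, and 421 to 1064 and 261 to 1104 in SmoM2-Sox9cKO against WT. Depth limits all of these results, since a region missed in a shallow list counts as closed.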
